A study of Rattus norvegicus with 35 samples.

Results

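The genes described here are the ligands, receptors and latency protein of the transforming growth factor-β (TGF-β) family: Tgfb1, Tgfb2, Tgfb3, Inhba, Gdf15 and Mstn, which encode ligands, Ltbp1, which encodes a latency protein, and Tgfbr1, Tgfbr2 and Tgfbr3, which encode receptors. They were chosen by name, with earlier results of these data known. A gene counted as measured when the annotation of the array gave a probe set that symbol alone. Of the 10 genes, 9 had such a probe set, among 14217 genes measured in this way. Together they were read by 13 of the 31042 probe sets tested, with 4 genes read by 2 probe sets each, and the brightest probe set stands for its gene. No probe set was named for Tgfbr2, which was not analysed here.

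RNA came from neonatal rat ventricular myocytes (NRVMs) of Sprague-Dawley pups aged 2-4 days, cultured in serum-free medium on flexible plates and subjected to cyclic mechanical stretch by vacuum suction. The 35 samples, in 7 groups with 5 biological replicates each, were run on Affymetrix rat genome arrays, where each transcript is read by a probe set made of short oligonucleotides. The 20 arrays of set I comprised unstretched cells, here control a, and myocytes after 1, 4 and 12 hours of stretch. The 15 arrays of set II comprised separate unstretched cells, here control b, and myocytes after 24 and 48 hours. All groups of a culture were harvested at the same time. The myocytes were enriched by pre-plating only, so other cells of the ventricle remained in every group, and in such mixed RNA fewer cells of a type and less RNA per cell cannot be told apart.

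Most ligands of the family are secreted as dimers that gather type I and type II receptor kinases on the cell surface, and these receptors pass the signal on by phosphorylating Smad proteins. TGF-βs are released in a latent form, bound to their own propeptide and tethered to the matrix by latent TGF-β binding proteins, and must be freed before they can act. In the heart the family is known for fibrosis and for the response to pressure load, activin A and GDF15 are secreted by stressed myocytes, and myostatin limits muscle growth.

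Array medians lay between 88.7 and 93.1 intensity units in set I and between 90.4 and 95.8 in set II, while upper quartiles were 341.3 to 372.0 and 394.7 to 416.4, and no level was compared across the sets. Values are log2 Robust Multichip Average (RMA) intensities. A gene passed the test at a limma p-value under 0.05 after Benjamini-Hochberg adjustment over all probe sets. The precision is set by the 5 arrays of a group. The median residual SD over all probe sets was 0.114 in set I and 0.12 in set II on the log2 scale. Some of the genes described were less precise in set II. The standard error of the log2 fold change there was 0.2 for Tgfb2, 0.268 for Tgfb3 and 0.236 for Gdf15, beside 0.072 for Tgfb1.

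Mechanical stretch was accompanied by higher mRNA levels of most of these genes, with the largest differences in Inhba at 1 hour, Gdf15 at 12 hours, and Tgfb2 and Inhba at 48 hours. Inhba, Gdf15, Tgfb2, Tgfb1 and Ltbp1 passed the test in the upward direction at all 5 times. Tgfb3 rose early, was lower than in the controls at 12 hours and was higher again at 48 hours. Tgfbr1 passed upward at 1, 4 and 12 hours and at neither later time, and Tgfbr3 and Mstn passed at no time.

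At 1 hour, 7 of the 9 genes were higher and 0 lower, where 8.24% of all genes were higher and 8.3% lower. At 4 hours again 7 were higher and 0 lower, against 17.1% and 19.2% of all genes. At 12 hours, 6 were higher and 1 lower, against 19.4% and 19.7%. In set II, 5 were higher at 24 hours and 6 at 48 hours, with 0 lower at either time, where 13.5% and 22.5% of all genes were higher and 10.1% and 18.4% lower. Rises of at least 1.5-fold that also passed the test were seen in 2, 4, 4, 3 and 5 of the 9 genes at the 5 times in order, while 0.999%, 1.76%, 1.7%, 1.71% and 3.83% of all genes rose as much. The median log2 fold change of the 9 genes was 0.32, 0.54, 0.36, 0.53 and 1.53 at these times, and the median of all genes stayed between 0.00 and 0.04. The genes were chosen with earlier results of these data known, so these counts and medians describe them and do not test the family. They were also read on the same arrays against shared controls, so they are not independent of each other.

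**Figure D1:**
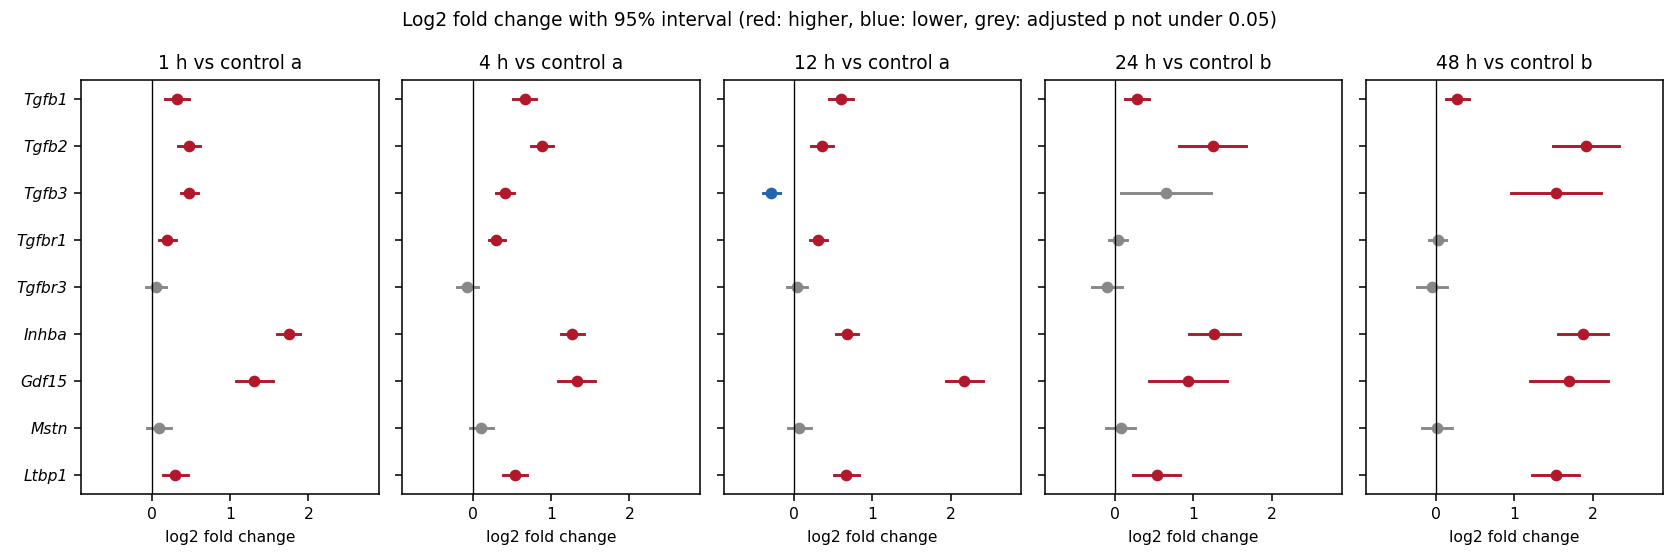
Log2 fold change (x axis) of each of the 9 measured genes (y axis) at 1, 4 and 12 hours against control a and at 24 and 48 hours against control b, n = 5 arrays per group. Points are estimates of the limma fit and bars their 95% intervals, red where the gene was higher with an adjusted p under 0.05, blue where lower, grey otherwise: Inhba (1.75 at 1 hour, 1.87 at 48 hours), Gdf15 (2.17 at 12 hours) and Tgfb2 (1.91 at 48 hours) lie farthest to the right, and Tgfb3 at 12 hours is the blue point.

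To show the sequences upstream of the 5 genes with the largest fold changes at any time, the 250 bases before the annotated start are given for Gdf15, Tgfb2, Inhba, Tgfb3 and Ltbp1, from RefSeq promoters of the GRCr8 build, each 5′ to 3′ on the strand of its gene. Gdf15 has a pair of annotated starts, and the downstream one is shown.
Gdf15, chr16:18839015-18839264, plus strand: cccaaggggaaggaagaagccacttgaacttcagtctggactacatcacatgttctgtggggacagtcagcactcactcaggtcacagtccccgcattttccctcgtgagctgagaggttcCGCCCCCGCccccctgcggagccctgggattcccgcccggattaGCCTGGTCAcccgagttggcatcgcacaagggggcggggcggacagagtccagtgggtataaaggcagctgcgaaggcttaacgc
Tgfb2, chr13:100792686-100792935, minus strand: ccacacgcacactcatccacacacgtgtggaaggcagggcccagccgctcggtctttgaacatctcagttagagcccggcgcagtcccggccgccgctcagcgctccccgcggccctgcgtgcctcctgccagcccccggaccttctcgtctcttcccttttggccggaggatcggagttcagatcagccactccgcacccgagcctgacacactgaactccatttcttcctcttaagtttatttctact
Inhba, chr17:53804509-53804758, minus strand: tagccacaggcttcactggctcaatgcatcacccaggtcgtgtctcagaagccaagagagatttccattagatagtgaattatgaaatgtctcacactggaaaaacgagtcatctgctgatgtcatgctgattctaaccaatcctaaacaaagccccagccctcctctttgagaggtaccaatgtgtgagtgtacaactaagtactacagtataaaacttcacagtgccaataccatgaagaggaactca
Tgfb3, chr6:111456947-111457196, minus strand: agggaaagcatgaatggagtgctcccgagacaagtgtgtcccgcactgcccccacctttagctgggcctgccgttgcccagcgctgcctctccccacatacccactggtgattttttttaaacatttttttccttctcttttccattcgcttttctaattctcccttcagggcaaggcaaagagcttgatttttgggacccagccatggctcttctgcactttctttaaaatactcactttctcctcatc
Ltbp1, chr6:26177302-26177551, minus strand: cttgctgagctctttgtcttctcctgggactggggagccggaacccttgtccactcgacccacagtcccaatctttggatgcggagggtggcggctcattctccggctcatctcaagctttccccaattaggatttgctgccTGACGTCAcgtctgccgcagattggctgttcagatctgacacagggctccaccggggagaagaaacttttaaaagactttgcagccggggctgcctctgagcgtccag
Capitals mark letters of a searched motif on either strand. The motifs were the AP-1 site TGAGTCA, the cyclic AMP response element (CRE) TGACGTCA, the antioxidant response element (ARE) TGACNNNGC, the C/EBP-ATF element (CARE) TGATGCAA, the Smad-binding CAGA box AGCCAGACA, the EGR site GCGGGGGCG and the CArG box, and 9 of the 10 listed genes had a promoter in the table. The Ltbp1 promoter held the CRE 108 to 101 bases before the start, as did 1.59% of 33469 promoters of this length. The Gdf15 promoter held the EGR letters at 129 to 121 bases before the start, found in 2.45% of promoters, and those of the ARE at 85 to 77 bases, found in 10.1%. Tgfbr2 was the other gene with a match, to the ARE at 193 to 185 bases before its start. The letters of AP-1, CARE, the CAGA box and the CArG box, which 4.05%, 0.693%, 0.314% and 1.5% of all promoters hold, were not in these windows of the listed genes. A match describes letters only, and its absence says nothing of the factor.

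Among the ligands, Tgfb1, which encodes the isoform most abundant in many tissues, showed a modest rise at every time. On arrays 1 to 5, control a lay at 7.94, 7.97, 8.03, 8.13 and 7.91, 1 hour at 8.27, 8.43, 8.24, 8.44 and 8.20, 4 hours at 8.42, 8.63, 8.83, 8.69 and 8.71, and 12 hours at 8.46, 8.53, 8.62, 8.69 and 8.69. Every stretched array of set I was above every control array. Tgfb1 was 1.25-fold higher at 1 hour (limma adjusted p = 0.00335), 1.58-fold at 4 hours (adjusted p = 4.17e-07) and 1.52-fold at 12 hours (adjusted p = 1.06e-06). In set II the controls lay at 7.43, 7.51, 7.63, 7.43 and 7.63, the 24-hour arrays at 7.64, 7.97, 7.76, 7.95 and 7.71, and the 48-hour arrays at 7.93, 7.72, 7.80, 7.75 and 7.77. These groups did not overlap with the controls, although the lowest 24-hour array stood only just above the highest control. The rise was 1.22-fold at 24 hours (log2 fold change 0.28, 95% interval 0.13 to 0.43, adjusted p = 0.0116) and 1.21-fold at 48 hours (0.27, interval 0.12 to 0.42, adjusted p = 0.00817). By level the groups of set I ran control, 1 hour, 12 hours and 4 hours, and 12 and 4 hours did not differ by the test (difference -0.06, adjusted p = 0.727), nor did 24 and 48 hours (-0.01, adjusted p = 0.963).

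Tgfb2, whose isoform is known for its role in heart development and which lacks the integrin-binding motif of the other latent forms, had the highest fold change of the 9 genes at 48 hours, close to that of Inhba. Control a read 9.91, 9.91, 10.09, 10.10 and 9.93, 1 hour 10.50, 10.51, 10.37, 10.46 and 10.45, 4 hours 10.58, 10.97, 10.97, 10.97 and 10.85, and 12 hours 10.31, 10.27, 10.45, 10.41 and 10.29. All stretched arrays exceeded all controls of set I, and 4 hours stood above the other groups. The fold change was 1.39 at 1 hour (limma adjusted p = 5.29e-05), 1.84 at 4 hours (adjusted p = 4.82e-09) and 1.28 at 12 hours (adjusted p = 0.000266). At 12 hours the level was 0.52 lower on the log2 scale than at 4 hours (difference -0.52, adjusted p = 2.75e-05) and did not differ from 1 hour by the test (-0.11, interval -0.25 to 0.03, adjusted p = 0.293).

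In set II the Tgfb2 controls were spread widely, at 9.21, 9.00, 9.79, 9.32 and 10.29, with arrays 3 and 5 the highest. The 24-hour arrays read 10.28, 10.98, 10.62, 11.05 and 10.90, and the 48-hour arrays 11.42, 11.56, 11.35, 11.28 and 11.55. The lowest 24-hour array lay just under the highest control, and every 48-hour array lay above all controls and all 24-hour arrays. Tgfb2 rose 2.37-fold at 24 hours (log2 fold change 1.25, 95% interval 0.82 to 1.67, limma adjusted p = 0.000399) and 3.76-fold at 48 hours (1.91, interval 1.49 to 2.33, adjusted p = 1.75e-06). The difference of 0.66 between 48 and 24 hours did not pass the test (adjusted p = 0.0628). A second, dimmer probe set of Tgfb2 passed at all times too, with log2 fold changes of 0.32, 0.94, 0.46, 1.01 and 1.60 at the 5 times in order.

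Control b arrays 3 and 5 were also high in Nppa and Acta1, genes of the hypertrophic response that were chosen after their values were seen. Nppa, which encodes atrial natriuretic peptide, read 12.70 and 13.60 on them and 11.87 to 12.35 on the other controls, and Acta1, which encodes skeletal α-actin, read 12.86 and 13.11 against 11.43 to 11.73. Why these arrays stand apart was not tested. Without them the log2 fold change of Tgfb2 was 1.59 at 24 hours and 2.26 at 48 hours. As they were its highest controls, their removal could only raise these values.

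**Figure D2:**
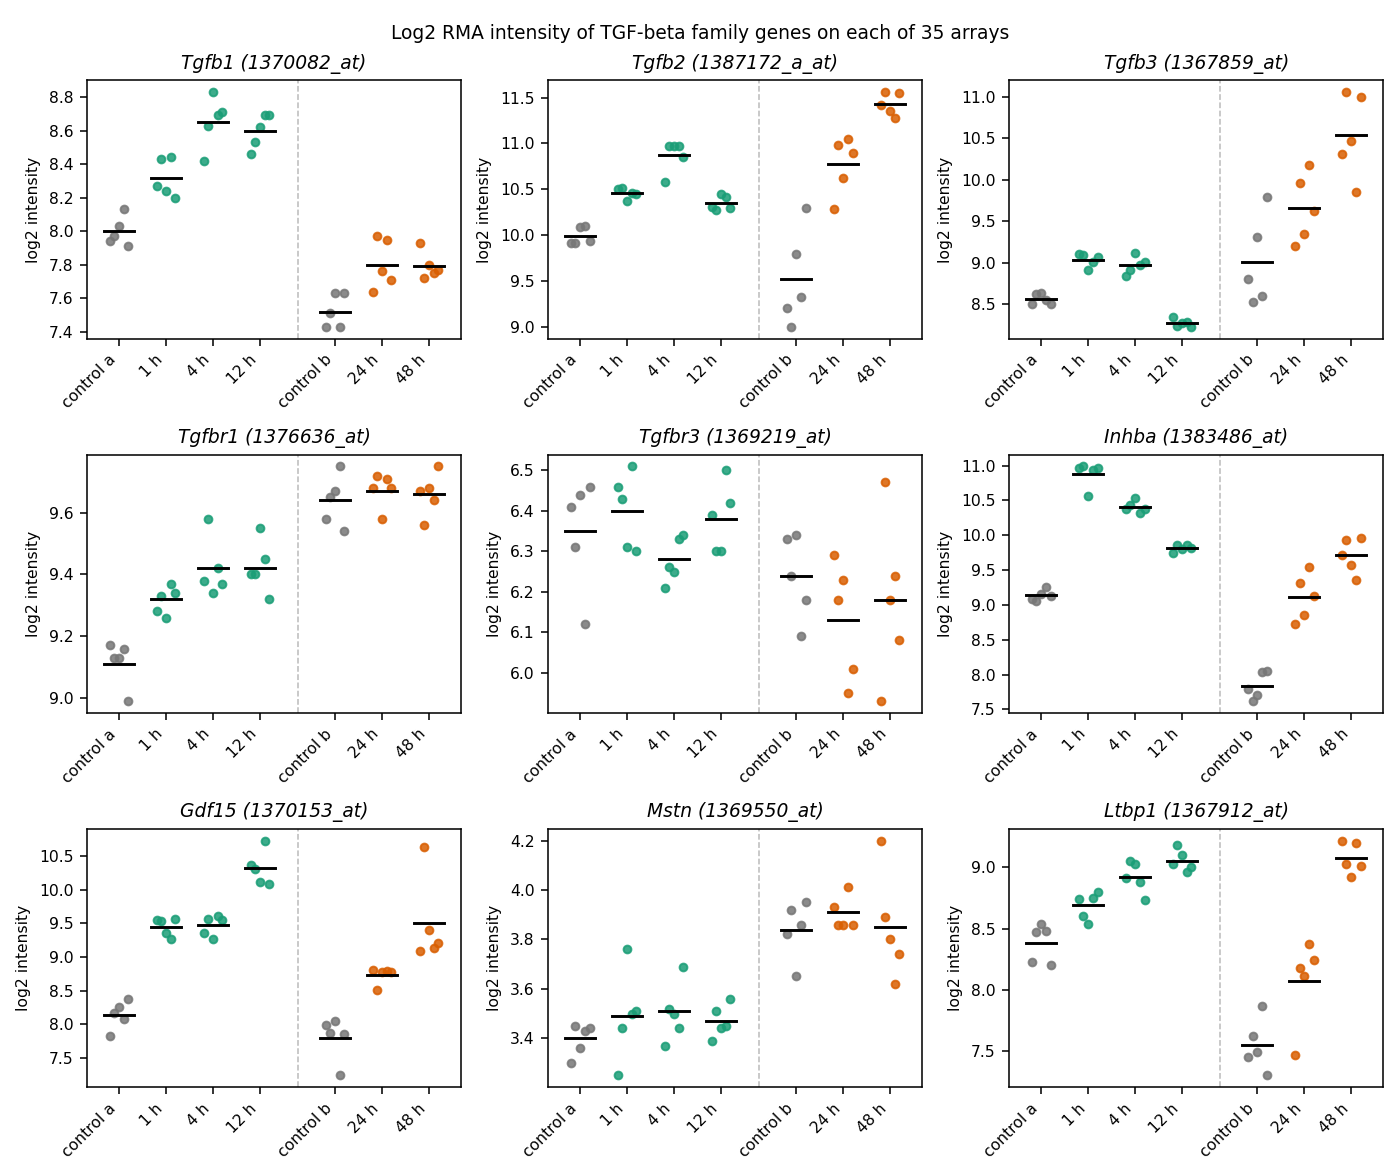
Log2 RMA intensity (y axis) of the brightest probe set of each measured gene on each of the 35 arrays, by group (x axis). Each point is 1 array, lines are group means, grey marks controls, green set I and orange set II, and the dashed line separates the sets, whose levels are not compared; in control b the highest points are 10.29 for Tgfb2 and 9.79 for Tgfb3, and in Gdf15 1 array at 48 hours stands at 10.64.

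Tgfb3, the third isoform, changed direction within set I. Control a lay at 8.50, 8.63, 8.64, 8.55 and 8.51, 1 hour at 9.11, 9.10, 8.92, 9.01 and 9.07, 4 hours at 8.84, 8.91, 9.12, 8.98 and 9.01, and 12 hours at 8.35, 8.24, 8.28, 8.29 and 8.23. The 1 and 4-hour arrays were all above the controls and the 12-hour arrays all below them. Tgfb3 was 1.40-fold higher at 1 hour (limma adjusted p = 1.33e-06), 1.33-fold higher at 4 hours (adjusted p = 4.00e-06) and 1.22-fold lower at 12 hours (log2 fold change -0.29, 95% interval -0.40 to -0.18, adjusted p = 0.000185). The fall between 4 and 12 hours was -0.70 (adjusted p = 1.84e-08), while 1 and 4 hours did not differ by the test (-0.07, adjusted p = 0.435).

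In set II the Tgfb3 controls read 8.81, 8.53, 9.31, 8.60 and 9.79, again with arrays 3 and 5 the highest. The arrays of 24 hours read 9.20, 9.96, 9.35, 10.18 and 9.62 and those of 48 hours 10.31, 11.06, 10.47, 9.86 and 11.00. The 24-hour arrays overlapped with the controls, and the 48-hour arrays did not. The log2 fold change of 0.65 at 24 hours did not pass (95% interval 0.08 to 1.22, limma adjusted p = 0.108), and at 48 hours Tgfb3 was 2.89-fold higher (1.53, interval 0.96 to 2.10, adjusted p = 0.000291). The call at 24 hours depended on the controls: the log2 fold change was 0.85 without control b array 5 (adjusted p = 0.0299) and 1.01 without arrays 3 and 5 (adjusted p = 0.0166). Removal of the highest controls can only raise this value, and the pair was picked after the data were seen, so these p-values do not stand as separate tests. The difference of 0.88 between 48 and 24 hours did not pass (adjusted p = 0.0659).

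Inhba, which encodes the βA subunit shared by activin A and inhibin A, had the largest rise of these genes at 1 hour. Control a lay at 9.09, 9.06, 9.15, 9.25 and 9.13, 1 hour at 10.97, 10.99, 10.56, 10.93 and 10.96, 4 hours at 10.38, 10.44, 10.54, 10.32 and 10.37, and 12 hours at 9.74, 9.86, 9.80, 9.86 and 9.82. No group of set I overlapped with another in the order control, 12 hours, 4 hours and 1 hour. The gene was 3.35-fold higher at 1 hour (log2 fold change 1.75, 95% interval 1.60 to 1.89, limma adjusted p = 1.05e-13), 2.42-fold at 4 hours (adjusted p = 2.98e-11) and 1.60-fold at 12 hours (adjusted p = 1.47e-07). Each step down passed the test, by -0.47 from 1 to 4 hours (adjusted p = 8.04e-05) and by -0.59 from 4 to 12 hours (adjusted p = 6.23e-06).

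In set II Inhba was again higher. The controls read 7.79, 7.62, 7.71, 8.04 and 8.05, the 24-hour arrays 8.72, 9.31, 8.85, 9.55 and 9.13, and the 48-hour arrays 9.72, 9.93, 9.57, 9.36 and 9.96. Both stretched groups lay above all controls and overlapped with each other. The fold change was 2.41 at 24 hours (limma adjusted p = 4.22e-05) and 3.65 at 48 hours (log2 fold change 1.87, 95% interval 1.55 to 2.19, adjusted p = 1.24e-07), and 48 hours was 0.60 above 24 hours on the log2 scale (adjusted p = 0.026), a call lost when any of 5 single arrays was left out. Control b arrays 3 and 5, at 7.71 and 8.05, did not stand apart here.

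The dimmer probe set annotated to Inhba did not show these rises. Over the 35 arrays it ranged from 6.68 to 7.26, whereas the brighter one ranged from 7.62 to 10.99. Its log2 fold changes were 0.13, 0.07, -0.06, 0.04 and 0.03 at the 5 times in order, with limma adjusted p from 0.167 to 0.725, and the upper end of its 95% interval at 1 hour was 0.25. The Inhba result therefore rests on 1 probe set, and which transcript each probe set reads was not tested.

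**Figure D3:**
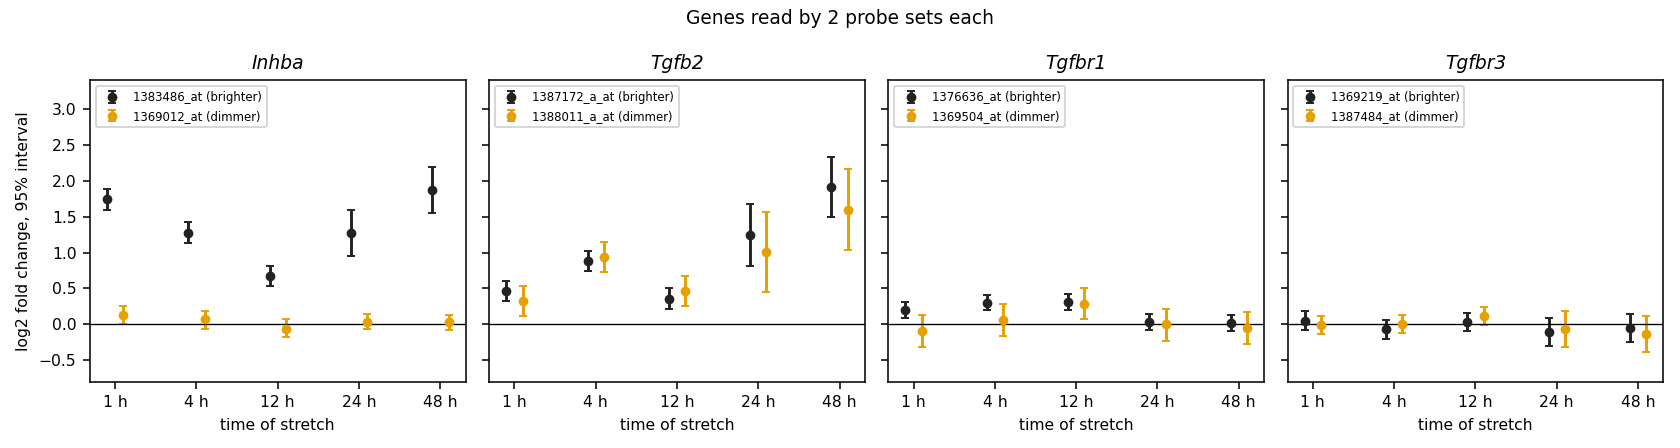
Log2 fold change (y axis, bars are 95% intervals of the limma fit, n = 5 arrays per group) at each time of stretch (x axis) for the 4 genes read by 2 probe sets each, the brighter in black and the dimmer in orange. The probe sets of Tgfb2 run close together (1.91 and 1.60 at 48 hours), whereas those of Inhba differ (1.75 and 0.13 at 1 hour).

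Gdf15, which encodes a stress-induced ligand that signals through the GFRAL receptor of the hindbrain, reached the largest fold change of the 9 genes at 12 hours. Control a lay at 7.83, 8.17, 8.26, 8.08 and 8.37, 1 hour at 9.55, 9.54, 9.35, 9.27 and 9.56, 4 hours at 9.36, 9.57, 9.26, 9.61 and 9.55, and 12 hours at 10.36, 10.31, 10.11, 10.73 and 10.08. The 1 and 4-hour arrays covered the same range above the controls, and the 12-hour arrays stood above both. Gdf15 rose 2.48-fold at 1 hour (limma adjusted p = 3.78e-08), 2.51-fold at 4 hours (adjusted p = 1.84e-08) and 4.51-fold at 12 hours (log2 fold change 2.17, 95% interval 1.94 to 2.41, adjusted p = 1.42e-11). By the size of its rise at 12 hours it ranked 4 among 14217 genes. The step from 4 to 12 hours was 0.85 (adjusted p = 3.43e-05), and 1 and 4 hours did not differ by the test (0.01, interval -0.22 to 0.25, adjusted p = 0.96).

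In set II the Gdf15 controls lay at 7.99, 7.87, 8.05, 7.24 and 7.85, the 24-hour arrays at 8.81, 8.51, 8.78, 8.79 and 8.77, and the 48-hour arrays at 9.09, 10.64, 9.40, 9.14 and 9.21. Array 2 of 48 hours stood well above the other arrays of its group. Neither stretched group overlapped with the controls. The rise was 1.91-fold at 24 hours (log2 fold change 0.93, 95% interval 0.43 to 1.43, limma adjusted p = 0.0108) and 3.24-fold at 48 hours (1.70, interval 1.20 to 2.20, adjusted p = 3.22e-05). When arrays were left out in turn, the estimate at 48 hours ran from 1.41 to 1.80 and passed each time. All 48-hour arrays exceeded all 24-hour arrays, but the difference of 0.76 did not pass the test (adjusted p = 0.0698).

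Mstn, which encodes myostatin, was among the dimmest probe sets. Its 35 values lay between 3.25 and 4.20, and only 5.26% of probe sets had a lower mean. Log2 fold changes were between 0.01 and 0.11 over the 5 times, with limma adjusted p from 0.313 to 0.945, and the 95% intervals stayed within -0.18 and 0.26. No change was detectable at this signal.

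Ltbp1, which encodes a protein that binds latent TGF-β and anchors it in the matrix, rose at all 5 times and most at 48 hours. Control a read 8.23, 8.47, 8.54, 8.48 and 8.20, 1 hour 8.74, 8.60, 8.54, 8.75 and 8.80, 4 hours 8.91, 9.05, 9.03, 8.88 and 8.73, and 12 hours 9.03, 9.18, 9.10, 8.96 and 9.00. The lowest 1-hour array met the highest control within the rounding of these values, and the 4 and 12-hour arrays were clear of the controls. Ltbp1 was 1.23-fold higher at 1 hour (limma adjusted p = 0.0087), 1.45-fold at 4 hours (adjusted p = 1.28e-05) and 1.59-fold at 12 hours (adjusted p = 6.69e-07). Neighbouring steps were small, at 0.24 from 1 to 4 hours (adjusted p = 0.0429, a call lost without any of 8 of the 10 arrays) and 0.13 from 4 to 12 hours (adjusted p = 0.345).

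In set II the Ltbp1 controls lay at 7.45, 7.62, 7.49, 7.87 and 7.30, the 24-hour arrays at 7.47, 8.18, 8.11, 8.37 and 8.24, and the 48-hour arrays at 9.22, 9.03, 8.92, 9.20 and 9.01. Array 1 of 24 hours lay among the controls, and the 48-hour arrays stood apart from every other array of the set. The gene rose 1.44-fold at 24 hours (log2 fold change 0.53, 95% interval 0.23 to 0.83, limma adjusted p = 0.015) and 2.88-fold at 48 hours (1.53, interval 1.23 to 1.83, adjusted p = 4.84e-07). Without control b arrays 3 and 5 the value at 24 hours was 0.43 and did not pass (adjusted p = 0.1). The difference between 48 and 24 hours was 1.00, or 2.00-fold (adjusted p = 0.000508), which ranked 3 among 14217 genes by the size of the rise.

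Of the receptors, Tgfbr1, which encodes the type I receptor kinase ALK5, showed a small rise in set I. Control a lay at 9.17, 9.13, 9.13, 9.16 and 8.99, 1 hour at 9.28, 9.33, 9.26, 9.37 and 9.34, 4 hours at 9.38, 9.58, 9.34, 9.42 and 9.37, and 12 hours at 9.40, 9.40, 9.55, 9.45 and 9.32. All stretched arrays were above all controls. The fold change was 1.15 at 1 hour (limma adjusted p = 0.0104), 1.23 at 4 hours (adjusted p = 0.000109) and 1.24 at 12 hours (adjusted p = 7.26e-05). In set II the controls lay between 9.54 and 9.75, and the stretched arrays between 9.56 and 9.75 with full overlap. The log2 fold changes of 0.04 at 24 hours (95% interval -0.08 to 0.15) and 0.02 at 48 hours (interval -0.09 to 0.13) did not pass (adjusted p = 0.712 and 0.791). Whether the early and late responses differ was not tested, since each set has its own controls. The dimmer Tgfbr1 probe set, between 3.95 and 4.67 on all arrays, passed at 12 hours (log2 fold change 0.29, adjusted p = 0.0419) and at no other time, and with the mean of both probe sets the value at 1 hour was 0.06 (adjusted p = 0.556).

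Tgfbr3, which encodes betaglycan, the co-receptor that presents TGF-β2 and binds inhibin, passed at no time. Its brighter probe set lay between 6.12 and 6.46 in control a and between 6.21 and 6.51 in the stretched arrays of set I, and the same overlap held in set II, with controls at 6.09 to 6.34 and stretched arrays at 5.93 to 6.47. Log2 fold changes were between -0.10 and 0.05 with limma adjusted p from 0.469 to 0.737, and the 95% intervals over all times stayed within -0.30 and 0.18. The dimmer probe set gave -0.13 to 0.11 and also passed at no time.

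Differences between times were then tested directly within a set. From 1 to 4 hours, 4 of the 9 genes differed (Tgfb1, Tgfb2 and Ltbp1 upward, Inhba downward), where 17.5% of all genes differed in either direction. From 4 to 12 hours, 4 differed (Gdf15 upward, Tgfb2, Tgfb3 and Inhba downward), against 12.1% of all genes. Between 1 and 12 hours, 5 differed (Tgfb1, Gdf15 and Ltbp1 upward, Tgfb3 and Inhba downward), against 26.3%. Between 24 and 48 hours, Inhba and Ltbp1 differed, both upward, against 8.69% of all genes. The genes therefore did not share a time course: over the first 12 hours Inhba declined from its level at 1 hour, Tgfb2 was highest at 4 hours and Gdf15 at 12 hours, while Ltbp1 at 12 hours was above 1 hour and its difference from 4 hours did not pass.

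The rest of the pathway was described from 6 hand-written lists with 96 measured genes of 117. As the lists were written with earlier results of these data known, their counts are a description and not a test. Counts of every list are to be read beside the shares of all genes. At the 5 times in order 8.24%, 17.1%, 19.4%, 13.5% and 22.5% of all genes were higher. Lower were 8.3%, 19.2%, 19.7%, 10.1% and 18.4%. Of 8 other ligands, 1, 2, 1, 3 and 2 were higher and 0, 0, 0, 0 and 1 lower at the 5 times in order. Inhbb, which encodes the βB subunit of activin B, passed at every time, with fold changes of 1.59, 1.45, 1.19, 2.70 and 2.67. Inhbc and Inhbe, which encode further β subunits, passed at no time. Of 9 other receptors and co-receptors, 1 to 3 were higher and 1 to 3 lower at each time. Their median log2 fold change lay between 0.02 and 0.09 and that of the other ligands between 0.01 and 0.17, against 0.00 to 0.04 for all genes. Acvrl1, which encodes the endothelial type I receptor ALK1, was 0.68 lower on the log2 scale at 12 hours (log2 fold change -0.68, limma adjusted p = 2.45e-06), and Nrp1, a co-receptor, was lower at 4, 12, 24 and 48 hours, reaching -0.60 (adjusted p = 7.7e-05).

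Among 19 genes of latency, storage and activation, 3, 5, 3, 7 and 7 were higher and 2, 4, 6, 1 and 4 lower at the 5 times in order. Their median log2 fold change at 48 hours was 0.08 against 0.04 for all genes, of which 22.5% were higher and 18.4% lower. Ltbp2, which encodes a matrix protein of the same family as Ltbp1, passed upward at all times and was 2.36-fold higher at 48 hours (limma adjusted p = 1.7e-06). Lrrc32, which encodes the cell-surface anchor of latent TGF-β known as GARP, was 0.32 lower at 12 hours (-0.32, adjusted p = 0.000626) and 1.65-fold higher at 48 hours (adjusted p = 1.73e-05). Itgav, the αv integrin subunit that helps free TGF-β, was 1.58-fold higher at 48 hours (adjusted p = 0.000186). Nrros, which encodes the corresponding anchor of macrophages and microglia, was lower at all 5 times, by -0.94 at 12 hours (adjusted p = 2.41e-09) and -1.01 at 48 hours (adjusted p = 9.84e-08), and Fbn2, a microfibril protein, was lower at 48 hours (-0.70, adjusted p = 0.000902).

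Of 8 extracellular antagonists, 2, 2, 1, 4 and 4 were higher and 1, 2, 3, 1 and 2 lower at these times. The shares of all genes given above stand beside these counts. Fst, which encodes the activin-binding protein follistatin, was 2.01-fold higher at 1 hour (limma adjusted p = 5.25e-09), lower at 12 hours (-0.23, adjusted p = 0.0218) and 1.55-fold higher at 48 hours (adjusted p = 0.00124). Fstl3, which encodes a related binder of activin and myostatin, rose at every time, to 2.48-fold at 24 hours (adjusted p = 0.000105) and 3.15-fold at 48 hours (adjusted p = 2.09e-06). Fmod, which encodes the TGF-β-binding proteoglycan fibromodulin, was lower at all 5 times, down to -1.71 at 48 hours (adjusted p = 5.24e-08). A2m, which encodes the protease inhibitor α2-macroglobulin, was 1.54-fold higher at 24 hours (adjusted p = 0.00352) and 1.38-fold at 48 hours (adjusted p = 0.0122).

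Of 28 Smads and intracellular regulators, 8, 13, 14, 11 and 15 were higher and 3, 1, 2, 1 and 2 lower at the 5 times. At least 1.5-fold higher were 1, 2, 0, 1 and 3 of them, while 0.999%, 1.76%, 1.7%, 1.71% and 3.83% of all genes rose as much. These were Pmepa1, Skil and Smad7, which are known as inhibitors of the pathway. Bambi, of the same list, was lower at 1 hour (-0.51, limma adjusted p = 1.32e-07) and higher at 12 hours (0.50, adjusted p = 7.05e-08). Pmepa1 passed at all times with fold changes of 1.35, 1.80, 1.47, 1.80 and 2.37, and Skil, a Smad co-repressor, with 1.69, 1.51, 1.32, 1.38 and 1.65. Smad7, the inhibitory Smad, passed at 24 hours (1.42-fold, limma adjusted p = 0.00103) and 48 hours (1.90-fold, adjusted p = 1.06e-06), and its log2 values of -0.09, 0.21 and 0.11 in set I did not pass. Of 24 genes known as targets of TGF-β, 12, 13, 8, 15 and 15 were higher and 1, 3, 4, 1 and 4 lower. For the regulators and the targets alike, the shares of all genes are those given above. Tnc, which encodes tenascin C, was 2.63-fold higher at 4 hours (adjusted p = 1.11e-13) and 2.47-fold at 48 hours (adjusted p = 6.27e-06), Bhlhe40, a transcriptional repressor, 2.67-fold at 1 hour (adjusted p = 3.11e-09), and the matrix protein gene Tgfbi 2.28-fold at 48 hours (adjusted p = 8.04e-06). The cell cycle inhibitor gene Cdkn1a was 2.18-fold higher at 48 hours (adjusted p = 3.52e-06), while Nox4, an oxidase gene, was lower then (-0.68, adjusted p = 0.00548). Acta2 and Tagln stand on both the target and the smooth muscle list, and Col1a1, Col1a2, Col3a1 and Postn on both the target and the fibroblast list. Many of these genes also respond to other signals, and which ligand acted on them was not tested.

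**Figure D4:**
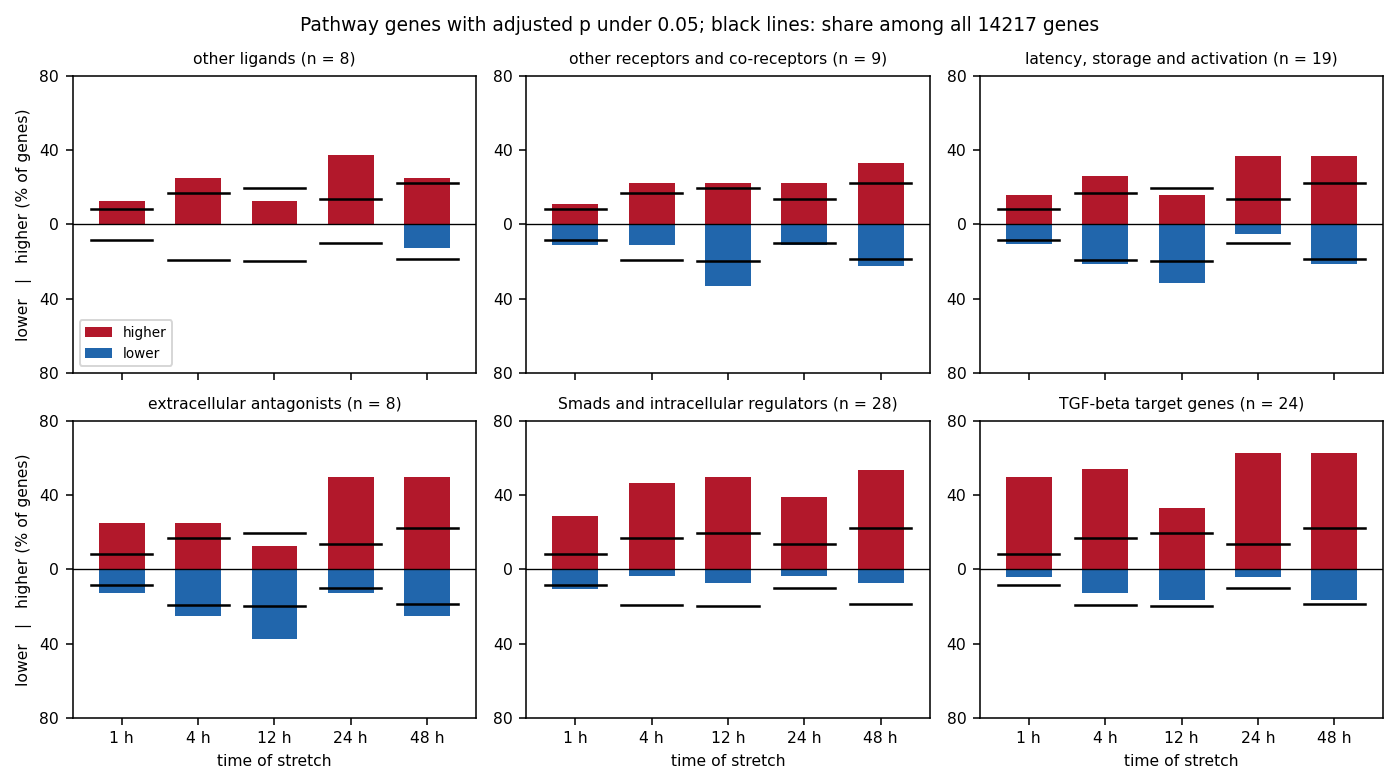
Share of the measured genes of each of the 6 pathway lists (y axis, percent, higher above 0 in red and lower below 0 in blue) with a limma adjusted p under 0.05 at each time of stretch (x axis), with black lines at the share among all 14217 genes. The red bars of the 24 target genes (12, 13, 8, 15 and 15 genes) and of the 28 Smads and regulators (8, 13, 14, 11 and 15) stand above the lines, which lie at 8.24%, 17.1%, 19.4%, 13.5% and 22.5%. The lists were chosen with earlier results of these data known.

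**Figure D5:**
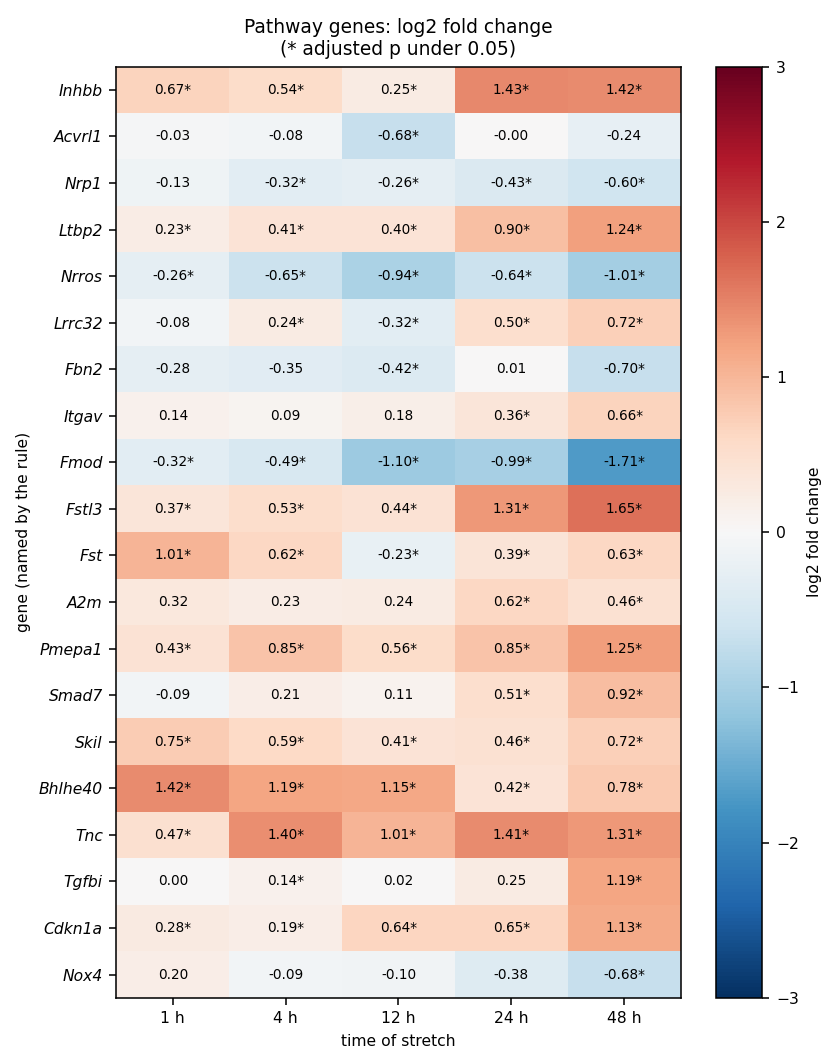
Log2 fold change (colour and printed value) of the 20 pathway genes named by the rule (rows) at each time of stretch (columns), with an asterisk where the limma adjusted p was under 0.05. Inhbb, Fstl3, Ltbp2, Pmepa1 and Tnc are red throughout and Nrros and Fmod blue throughout, with Fmod at -1.71 and Fstl3 at 1.65 at 48 hours.

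Because the cultures held other cells, markers were read beside these results. Of all genes 22.5% were higher at 48 hours, and 19.2%, 19.7%, 10.1% and 18.4% were lower at 4, 12, 24 and 48 hours. The summed intensity of 19 cardiomyocyte markers was 175000 to 183000 in control b and 156000 to 162000 at 48 hours, where 3 were higher and 11 lower. Myl7, Mb and Ckm fell most, at -1.91, -1.57 and -1.14 on the log2 scale. The 3 higher were Csrp3, Myh7 and Nkx2-5, at 0.62, 0.46 and 0.21. The median log2 fold change of this list at 48 hours was -0.19, against 0.04 for all genes. Of 15 fibroblast markers 2 were higher and 8 lower at 48 hours, Pdgfra by -1.04 and Dpt by -0.67, while Fbln2 was higher by 1.47, and their sum was 84300 to 87700 in control b and 71000 to 79700 at 48 hours. Of 12 endothelial markers 10 were lower at 48 hours, among them Cldn5 (-0.99), Ptprb (-0.96) and Emcn (-0.92), with sums of 4160 to 5510 and 3060 to 3220, and of 14 macrophage markers 10 were lower, among them Mrc1 (-1.13), Adgre1 (-0.97) and C1qa (-0.84), with sums of 7070 to 8040 and 4040 to 4950. The 10 smooth muscle and pericyte markers summed to 4350 to 6080 in control b, 5290 to 8290 at 24 hours and 6840 to 7660 at 48 hours, and 4 were higher and 2 lower at 48 hours, with Cnn1 higher by 2.89, Acta2 by 1.12 and Cspg4 by 1.01 and Kcnj8 and Rgs5 lower, at -0.79 and -0.50. The median log2 fold change of this list at 48 hours was 0.02, against 0.04 for all genes. In set I this sum was 7110 to 7780 in control a, 8540 to 9510 at 1 hour, 8580 to 10400 at 4 hours and 7050 to 7870 at 12 hours. The smooth muscle sum lay above the range of its controls at 1, 4 and 48 hours and overlapped with it at 12 and 24 hours. The myocyte, fibroblast, endothelial and macrophage sums were low at 48 hours, when Tgfb2, Tgfb3, Inhba, Gdf15 and Ltbp1 had their highest means of set II. Among these genes, Inhba and Ltbp1 alone differed between 48 and 24 hours by the test. At 12 hours these sums were also lower, at 167000 to 171000 against 180000 to 186000 in control a for myocytes, 73100 to 77600 against 79400 to 85100 for fibroblasts, 2220 to 2630 against 2860 to 3460 for endothelium and 1570 to 1760 against 1810 to 2140 for macrophages, and 8 of 12 endothelial markers were lower then, when Acvrl1 was lower too. Of the 12 endothelial markers, 7, 5 and 10 were lower at 4, 24 and 48 hours, and Acvrl1 passed at none of these times. Its log2 fold change was -0.08 at 4 hours and -0.24 at 48 hours (limma adjusted p = 0.575 and 0.0661). The part of other cells in these results was not tested.

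Last, the genes whose profile was most like those of the 4 members with the largest changes were found by Pearson correlation over 35 arrays of log2 values taken relative to the control mean of the set, among 7108 brighter genes. For Tgfb2 they were Actn1 (r = 0.987) and Enah (0.987), which encode actin-binding proteins, and Mllt11 (0.972). Actn1 had log2 fold changes of 0.45, 0.76, 0.41, 1.14 and 1.81 at the 5 times, beside 0.47, 0.88, 0.36, 1.25 and 1.91 for Tgfb2. For Inhba they were Skil (0.965), Plk2 (0.961), a polo-like kinase gene, and Hbegf (0.958), which encodes a ligand of the EGF receptor and had log2 fold changes of 1.58, 1.11, 0.62, 1.20 and 1.74. For Tgfb3 they were Dnaja4 (0.94), a heat shock co-chaperone gene, Gadd45g (0.931) and Pdlim3 (0.928). For Gdf15 they were Pkd2 (0.926), Gclc (0.92), which encodes the catalytic subunit of glutathione synthesis and had 1.05, 0.95, 1.64, 0.81 and 0.90, and Btbd10 (0.913). These correlations describe points that share arrays and controls, and the spread of the set II controls enters them.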

How the data were processed

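Expression was measured on 35 Affymetrix rat genome arrays. Scans were normalized by the authors with RMA in GeneSpring GX 12.6, and the deposited values are intensities on a linear scale, which were taken to log2 here. A spreadsheet had turned 471 values in 427 probe sets into dates. They were read back, and none belonged to a probe set of the listed TGF-β family genes. The other genes named here were not checked for such values. Control labels carry a letter only, read as set I (a) and set II (b).

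The file holds 31099 probe sets, and 57 of these, the controls of the array, were removed. The groups of a set were fitted together in limma 3.58.1 (R 4.3.3) with empirical Bayes variances, and p-values were adjusted by Benjamini-Hochberg over 31042 probe sets per comparison. The annotation gives 1 gene for 20826 probe sets, several for 436 and none for 9780. Tables were handled in Python 3.11.15 with pandas 2.3.3 and numpy 2.4.6. On data simulated with independent normal noise and few altered probe sets, 46, 44, 41, 45 and 43 of 50 altered 1.5-fold were recovered at the 5 times in order. Of 50 altered 1.3-fold, 40, 38, 39, 28 and 34 were recovered. In the real arrays many more genes changed and Tgfb2, Tgfb3 and Gdf15 were less precise in set II, so these rates need not hold for them.

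The genes and all lists were chosen with earlier results of these data known. Named were all members and up to 4 genes of each pathway list with the largest change past an adjusted p of 0.05 and 1.5-fold. Any pathway gene that passed both in the direction opposite to most was named too. So were up to 3 genes of each marker list and the 3 genes most like each of 4 members. Named besides were some markers that went the other way and a few further pathway genes, such as Inhbc and Bambi. An ordinary one-way analysis of variance with contrasts between groups was run as an alternative, without the 2-fold limit of the study. Results were recomputed under 11 alternatives and without each array in turn. The omission of both high controls, the contrast of 12 with 1 hour and the marker sums were added after seeing the data.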

Additional observations from a re-analysis of the deposited data

Results flagged for a closer look

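In 6 of 63 groups of 5 arrays, 1 array stood far from the rest by Dixon's criterion, which chance flags in about 1 of 20 groups. These were the lowest array of Tgfbr1 in control a (8.99, the next at 9.13), of Inhba at 1 hour (10.56, next 10.93), of Gdf15 in control b (7.24, next 7.85) and at 24 hours (8.51, next 8.77), and of Ltbp1 at 24 hours (7.47, next 8.11), and the highest array of Gdf15 at 48 hours (10.64, next 9.40).

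The effect of stretch differed between times of a set, by limma on the log2 scale, in 15 comparisons among the 9 genes. Of all genes 17.5% differed from 1 to 4 hours, 12.1% from 4 to 12, 26.3% from 1 to 12 and 8.69% from 24 to 48 hours. The contrast of 12 with 1 hour was added after seeing the data and spans the steps between. Tgfb1 was higher at 4 hours than at 1 hour (0.34, adjusted p = 0.00264) and at 12 hours than at 1 hour (0.28, adjusted p = 0.00601). Tgfb2 was higher at 4 hours than at 1 hour (0.41, adjusted p = 0.000309) and lower at 12 hours than at 4 hours (-0.52, adjusted p = 2.75e-05). Tgfb3 was lower at 12 hours than at 4 hours (-0.70, adjusted p = 1.84e-08) and 1 hour (-0.77, adjusted p = 1.14e-09).

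Inhba was lower at 4 hours than at 1 hour (-0.47, adjusted p = 8.04e-05), at 12 hours than at 4 hours (-0.59, adjusted p = 6.23e-06) and at 12 hours than at 1 hour (-1.07, adjusted p = 5.16e-10), and higher at 48 hours than at 24 hours (0.60, adjusted p = 0.026). Gdf15 was higher at 12 hours than at 4 hours (0.85, adjusted p = 3.43e-05) and 1 hour (0.86, adjusted p = 9.87e-06). Ltbp1 was higher at 4 hours than at 1 hour (0.24, adjusted p = 0.0429), at 12 hours than at 1 hour (0.37, adjusted p = 0.00124) and at 48 hours than at 24 hours (1.00, adjusted p = 0.000508). The calls of Inhba from 24 to 48 hours and of Ltbp1 from 1 to 4 hours were lost when certain single arrays were left out.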

How the results depend on the processing

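No change of direction of a passed result was seen under any alternative. The count of the 9 genes higher stayed at 7, 7 and 6 at 1, 4 and 12 hours whichever array was left out, and was 5 to 6 at 24 hours and 6 at 48 hours. Between 48 and 24 hours, 2 genes differed in the reported fit, 1 in an ordinary analysis of variance, 5 with dim probe sets left out, 5 with 1 probe set per gene, 4 with the mean over probe sets, and 1 to 3 when arrays were left out in turn. The call of Inhba in that comparison was lost without 24-hour array 1 or 3 or 48-hour array 1, 2 or 5 (adjusted p up to 0.0744), in the analysis of variance and with these groups fitted alone, while Tgfb2, Tgfb3 and Gdf15 passed there with dim probe sets left out or 1 probe set per gene. Ltbp1 from 1 to 4 hours lost its call under 4 alternatives and without 8 of 10 arrays (adjusted p up to 0.116). Pathway genes lower at 24 hours numbered 5, but 3 with the groups compared fitted alone, 3 with arrays centred on their median, and 3 to 5 when arrays were left out in turn (3 without control b array 1 or 2 or 24-hour array 2 or 4).

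No clear tendency to deviate together was seen in arrays with the same replicate number. Their residual correlations lay between -0.297 and 0.339 (set I, 6 of 30 pairs over 0.1) or -0.393 and 0.539 (set II, 6 of 15 pairs). For arrays with different numbers they lay between -0.364 and 0.372 (30 of 120 pairs over 0.1) or -0.575 and 0.511 (21 of 60 pairs). The numbers were therefore not taken to pair the samples. With the replicate number as a block, 3 pathway genes were lower at 24 hours in place of 5, and Ltbp1 lost its call from 1 to 4 hours (0.24, adjusted p = 0.0519).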
